A study of Mus musculus with 11 samples.

Results

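The 9 genes Cldn5, Cldn12, Ocln, Marveld2, Lsr, F11r, Jam2, Tjp1 and Cgnl1 encode proteins of the tight junction and were taken by symbol from the 32287 genes in the deposited feature lists. Their unique molecular identifiers (UMIs, 1 per captured transcript) were summed in each mouse over capillary, arterial, venous and fenestrated endothelial cells and over choroid plexus epithelium. The study isolated brain microvessels with magnetic beads that carry antibodies against CD31, an endothelial surface protein, and made 1 droplet library from each of 11 untreated mice. Of these, 6 were R182C-TgN3 mice, a model of the inherited small vessel disease CADASIL, with 3 mice at 9 months and 3 at 6 months. The other 5 were WT-TgN3 controls, with 3 at 6 months and 2 at 9 months. In every mouse a NOTCH3 transgene of human sequence was present, mutated at R182C in the R182C-TgN3 line and unmutated in the WT-TgN3 line, so that presence of the transgene does not tell the groups apart. Both sexes and 4 preparation batches were used, and because no batch held both ages, age and batch cannot be told apart.

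Tight junctions seal the space between neighbouring cells, and in most brain vessels they are a physical base of the blood-brain barrier. Claudins and the MARVEL proteins span the membrane of both cells, angulins hold the corners where cells meet, junctional adhesion molecules (JAMs) bind across the gap, and cytoplasmic scaffolds tie these proteins to actin. In the choroid plexus the vessels are fenestrated and leaky, and the epithelium around them forms the barrier with tight junctions of its own.

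On mm10 with the GENCODE vM21 annotation, Cldn5 (ENSMUSG00000041378) lies at chr16:18776847-18778262 and Jam2 (ENSMUSG00000053062) at chr16:84774123-84825928, both on the plus strand. F11r (ENSMUSG00000038235) lies at chr1:171437535-171464603 on the plus strand. The minus strand holds Cldn12 (ENSMUSG00000046798) at chr5:5489537-5514958, Lsr (ENSMUSG00000001247) at chr7:30957770-30973464, Tjp1 (ENSMUSG00000030516) at chr7:65296165-65527781 and Cgnl1 (ENSMUSG00000032232) at chr9:71626509-71771602. Ocln (ENSMUSG00000021638) at chr13:100496507-100552718 and Marveld2 (ENSMUSG00000021636) at chr13:100595957-100616971 stand on the same strand with a gap of 43.2 kb between them. No annotated named gene overlapped a member.

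Promoters are shown for Cldn5 and Ocln, which had much lower levels in fenestrated than in capillary cells, and for F11r, which had a higher level there. Each is the 250 bases before the first listed RefSeq start on GRCm38.p6, written 5′ to 3′ on the strand of the gene, at chr16:18776597-18776846 (plus strand) for Cldn5, chr13:100552719-100552968 (minus strand) for Ocln, and chr1:171437311-171437560 (plus strand) for F11r. Capitals mark the CCAAT box (CCAAT or its reverse complement ATTGG) and the GC box (GGGCGG or CCGCCC), and no match overlaps another in these windows.
Cldn5: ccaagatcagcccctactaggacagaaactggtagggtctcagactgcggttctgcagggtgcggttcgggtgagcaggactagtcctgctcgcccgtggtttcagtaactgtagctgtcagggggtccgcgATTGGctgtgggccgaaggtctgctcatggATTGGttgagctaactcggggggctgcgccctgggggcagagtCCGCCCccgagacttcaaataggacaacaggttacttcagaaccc
Ocln: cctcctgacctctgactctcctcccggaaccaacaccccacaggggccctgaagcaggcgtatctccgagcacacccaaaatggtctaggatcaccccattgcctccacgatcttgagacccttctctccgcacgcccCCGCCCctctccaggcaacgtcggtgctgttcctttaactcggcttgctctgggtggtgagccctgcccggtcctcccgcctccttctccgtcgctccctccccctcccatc
F11r: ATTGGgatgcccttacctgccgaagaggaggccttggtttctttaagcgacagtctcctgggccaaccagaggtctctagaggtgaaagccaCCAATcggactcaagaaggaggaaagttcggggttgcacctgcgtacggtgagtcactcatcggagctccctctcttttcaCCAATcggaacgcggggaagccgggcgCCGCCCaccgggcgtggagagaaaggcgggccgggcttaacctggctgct
Of 32851 promoter windows of this length, 33.8% held a CCAAT box and 32.7% a GC box on either strand. Cldn5 had 2 CCAAT boxes and 1 GC box, F11r had 3 and 1, and the Ocln window shown had none and 1. The window of a second RefSeq start of Ocln, at chr13:100552499-100552748, had 1 of each. A core of the forkhead motif (TGTTTA or TAAACA, in 12% of windows) was not found in the 12 windows of the 8 members with a RefSeq promoter. These letters describe the windows and say nothing about which factor binds there.

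The total depth per library was between 17550806 and 64215050 UMIs, over 66658 barcodes in all. Pairs of libraries shared between 5 and 350 barcodes, and all barcodes found in more than 1 library were left out (1722 of those that would have passed the filters). After removal of barcodes with few genes or many mitochondrial UMIs and of scored doublets, 56712 cells remained with a median of 4957 UMIs. Endothelial cells were sorted by a score over marker genes that included no member and no other junction gene, and a cell entered the class whose score led the others by at least 0.25. In 2 mice many cells lay in a cluster mostly of that library. In the 6-month R182C-TgN3 mouse 1 these were 462 of 788 arterial, 221 of 739 venous and 35 of 149 fenestrated cells, and in the 9-month WT-TgN3 mouse 2 they were 205 of 485 fenestrated cells. Leaving out these clusters changed no call for a member. The classes held 11388 capillary, 6961 arterial, 6168 venous and 2368 fenestrated cells, while 9436 endothelial cells fell between classes. These classes are ranges of a score, and 3643, 1513, 1533 and 495 cells, in the same order, led by less than double this margin. Choroid plexus epithelium was a cluster of 638 cells, all 10 of whose markers were detected in every mouse used. Levels below are in CPM, the UMIs of a gene scaled to the same fixed total for each class and mouse. They are not divided by transcript length and are compared within a gene only.

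Tight junction genes differed between vessel segments in gene-specific directions. In arterial against capillary cells of the same mice, 3 members were higher, 4 were lower and 2 did not pass the test (edgeR's quasi-likelihood test with mouse as a block, Benjamini-Hochberg adjusted p under 0.05, n = 11 mice), where 57.8% of all 10670 genes tested passed, 29.1% higher and 28.7% lower. In venous cells 3 were higher, 4 lower and 2 did not pass, against 55.6% of 10910 genes (26.8% higher and 28.8% lower). With 9 members, these counts lay near the shares among all genes and are no result about the members as a set. In fenestrated cells 7 members were lower, 1 was higher and 1 did not pass, where 27.6% of 9956 genes were lower, 25.9% higher and 53.5% passed in either direction. The median log2 fold change of the members was -1.53 in fenestrated cells, beside -0.03 over all genes tested. It was -0.13 in arterial and 0.02 in venous cells, beside -0.01 in both cases over all genes. Because the members were chosen with earlier results of these data known, their counts and medians are descriptions, here and for choroid plexus epithelium below. They do not test the members as a set.

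**Figure D1:**
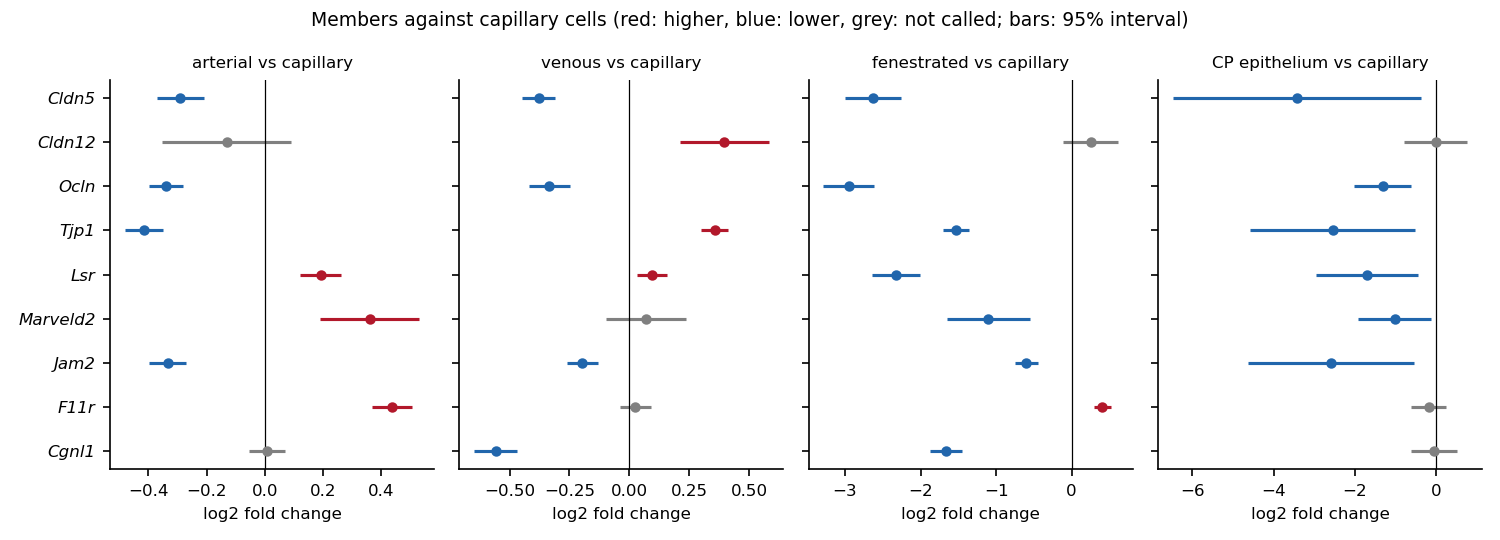
Log2 fold change of each member against capillary cells (x axis) for 4 classes, with 95% intervals as bars. Members called higher are red, those called lower are blue and the others are grey. Cldn5 and Ocln lie left of 0 in every panel, and the fenestrated and choroid plexus panels have wider x axes than the other panels.

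Cldn5, the main claudin of brain endothelium, was highest in capillary cells. It ranged from 4810 to 6287 CPM over the 11 mice with a median of 5498 (mean 5552 ± 492, SD). Arterial cells had between 3670 and 5348 CPM (median 4478) and venous cells between 3641 and 5211 CPM (median 4049). The ranges of these 3 classes overlapped, but within each mouse the capillary level was the highest, in 11 of 11 mice against both other classes. The log2 fold change was -0.29 (standard error 0.04, edgeR adjusted p = 4.75e-07) in arterial and -0.38 (standard error 0.03, edgeR adjusted p = 5.66e-10) in venous cells, or 1.22 and 1.30 times lower. Fenestrated cells had between 371 and 1561 CPM (median 907), below every capillary, arterial and venous value. Their level was 6.17 times lower than in capillary cells (log2 fold change -2.63, standard error 0.17, edgeR adjusted p = 3.92e-11). Microglia, which should lack Cldn5, had 54.9 ± 19.8 CPM (SD, n = 11).

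Cldn12, a claudin without the usual binding motif for scaffold proteins, was scarce. Mean levels ran from 8.74 ± 4.05 CPM (SD, n = 5) in choroid plexus epithelium to 14.3 ± 3.10 CPM (SD, n = 11) in venous cells, and in each class it rested on between 44 and 1020 UMIs in all. The order was venous, fenestrated, capillary, arterial and choroid plexus, and the ranges of all neighbours in that order overlapped. Venous cells were higher than capillary cells in 10 of 11 mice, by 0.40 on the log2 scale (standard error 0.08, edgeR adjusted p = 3.56e-04). In fenestrated cells, where Cldn5 was lowest among endothelial cells, Cldn12 was 12.7 ± 4.35 CPM (SD, n = 11) against 10.9 ± 2.05 CPM (SD, n = 11) in capillaries, a difference that did not pass the test (log2 fold change 0.25, 95% interval -0.11 to 0.61).

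Among the MARVEL proteins, Ocln encodes occludin, which lines the junction strands, and Marveld2 encodes tricellulin of the tricellular contacts. Ocln ranged from 268 to 364 CPM in capillary cells (median 295), from 215 to 288 CPM in arterial cells (median 239) and from 209 to 279 CPM in venous cells (median 248). It was lower than in capillaries in all 11 mice in both segments, with log2 fold changes of -0.34 (standard error 0.03, edgeR adjusted p = 2.08e-10) and -0.33 (standard error 0.04, edgeR adjusted p = 1.75e-07). Arterial and venous levels were close to each other, and their ranges overlapped. Fenestrated cells had between 14.9 and 87.6 CPM (median 46.3), a level 7.72 times lower than in capillaries (log2 fold change -2.95, standard error 0.15, edgeR adjusted p = 1.48e-12). Marveld2 was at 11.04 ± 1.60 CPM in capillaries, 13.6 ± 1.50 CPM in arterial and 11.4 ± 1.66 CPM in venous cells (SD, n = 11 each). Arterial cells were higher (log2 fold change 0.36, edgeR adjusted p = 3.84e-04) in 9 of 11 mice. In fenestrated cells Marveld2 had 70 UMIs in all and none in 1 mouse, and at 5.39 ± 3.84 CPM (SD, n = 11) it was lower than in capillaries (log2 fold change -1.10, edgeR adjusted p = 8.03e-04). The mean levels of all 4 endothelial classes lay within the range of microglia, from 3.81 to 14.9 CPM.

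Lsr encodes angulin-1, which recruits tricellulin to the corners where cells meet. Capillary cells had between 213 and 302 CPM (median 237), arterial cells between 243 and 294 CPM (median 263) and venous cells between 223 and 330 CPM (median 248). These ranges overlapped, and the paired differences were small, with log2 fold changes of 0.19 (standard error 0.03, edgeR adjusted p = 1.73e-05) in arterial cells and 0.09 (standard error 0.03, edgeR adjusted p = 0.00747) in venous cells. The venous difference was lost when mouse was left out of the model (edgeR adjusted p = 0.293). Lsr thus ran opposite to Ocln in these segments, but in fenestrated cells it was lower as well, between 25.3 and 77.7 CPM (median 44.1). This was 5.01 times lower than in capillaries (log2 fold change -2.32, standard error 0.14, edgeR adjusted p = 2.44e-11).

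F11r encodes JAM-A, a JAM of endothelial, epithelial and blood cells, and was the member with a higher level in fenestrated cells. It ranged from 116 to 154 CPM in capillaries (median 126) and from 138 to 211 CPM in fenestrated cells (median 177), and it was higher in 11 of 11 mice although the ranges overlapped. The log2 fold change was 0.41 (standard error 0.05, edgeR adjusted p = 1.28e-06). Arterial cells, at 151 to 216 CPM (median 175), were higher than capillaries to a similar extent (log2 fold change 0.44, standard error 0.03, edgeR adjusted p = 4.03e-11). Venous cells were not separated from capillaries (132 ± 13.1 CPM, SD, n = 11, log2 fold change 0.02, 95% interval -0.04 to 0.09). Microglia had between 265 and 418 CPM of F11r, above every endothelial value, and smooth muscle cells 29.5 ± 15.3 CPM (SD, n = 11). The 6 microglial markers summed to between 267 and 806 CPM in capillary, 223 and 681 CPM in arterial and 229 and 727 CPM in fenestrated cells, and their part in the F11r levels was not tested.

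Jam2 encodes JAM-B, an endothelial JAM. Capillary cells had between 306 and 376 CPM (median 338), venous cells between 245 and 347 CPM (median 301), arterial cells between 219 and 303 CPM (median 260) and fenestrated cells between 168 and 300 CPM (median 214). No arterial or fenestrated value reached the lowest capillary value, while venous and capillary values overlapped. Jam2 was lower than in capillaries in 11 of 11 mice in each of the 3 segments, with log2 fold changes of -0.33 (standard error 0.03) in arterial, -0.20 (standard error 0.03) in venous and -0.60 (standard error 0.07) in fenestrated cells (edgeR adjusted p = 1.08e-09, 5.71e-06 and 4.30e-07). Of the 7 members lower in fenestrated cells, Jam2 had the smallest difference.

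The scaffolds Tjp1 and Cgnl1 went in opposite directions in venous cells. Tjp1 encodes ZO-1, which binds claudins and occludin to actin, and had between 1388 and 1935 CPM in venous cells (median 1788) against 1124 to 1559 CPM in capillaries (median 1404). Arterial cells had between 758 and 1111 CPM (median 1022). The order venous, capillary and arterial held in each of the 11 mice, with log2 fold changes against capillaries of 0.36 (standard error 0.03, edgeR adjusted p = 6.76e-11) in venous and -0.42 (standard error 0.03, edgeR adjusted p = 3.93e-11) in arterial cells. Cgnl1 encodes paracingulin, a partner of ZO-1, and had between 188 and 312 CPM in venous cells (median 249) against 307 to 411 CPM in capillaries (median 362). It was lower in venous cells of all 11 mice (log2 fold change -0.56, standard error 0.04, edgeR adjusted p = 9.21e-11) and did not pass the test in arterial cells (363 ± 38.2 CPM, SD, n = 11, log2 fold change 0.01, 95% interval -0.05 to 0.07). With segments taken from subclusters in place of the score, arterial Cgnl1 passed (log2 fold change 0.17, edgeR adjusted p = 1.11e-05). Fenestrated cells had less of both, with 348 to 691 CPM of Tjp1 (log2 fold change -1.53, edgeR adjusted p = 8.73e-13) and 73.9 to 188 CPM of Cgnl1 (log2 fold change -1.66, edgeR adjusted p = 9.28e-12). Genes that respond to cell dissociation, a list of 10 with Fos and Jun, summed to 9574 to 17941 CPM in venous and 5495 to 11087 CPM in capillary cells. They summed to 6882 to 16370 CPM in arterial and 6716 to 14910 CPM in fenestrated cells. Their part in the venous, arterial and fenestrated differences was not tested. Venous and arterial cells also held more UMIs per cell than capillary cells in each mouse. In the 9-month R182C-TgN3 mouse 1, 940 venous and 1113 arterial cells held 10329125 and 7781167 UMIs, and 1743 capillary cells held 7909772. The part of this depth in the differences between segments was not tested.

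**Figure D2:**
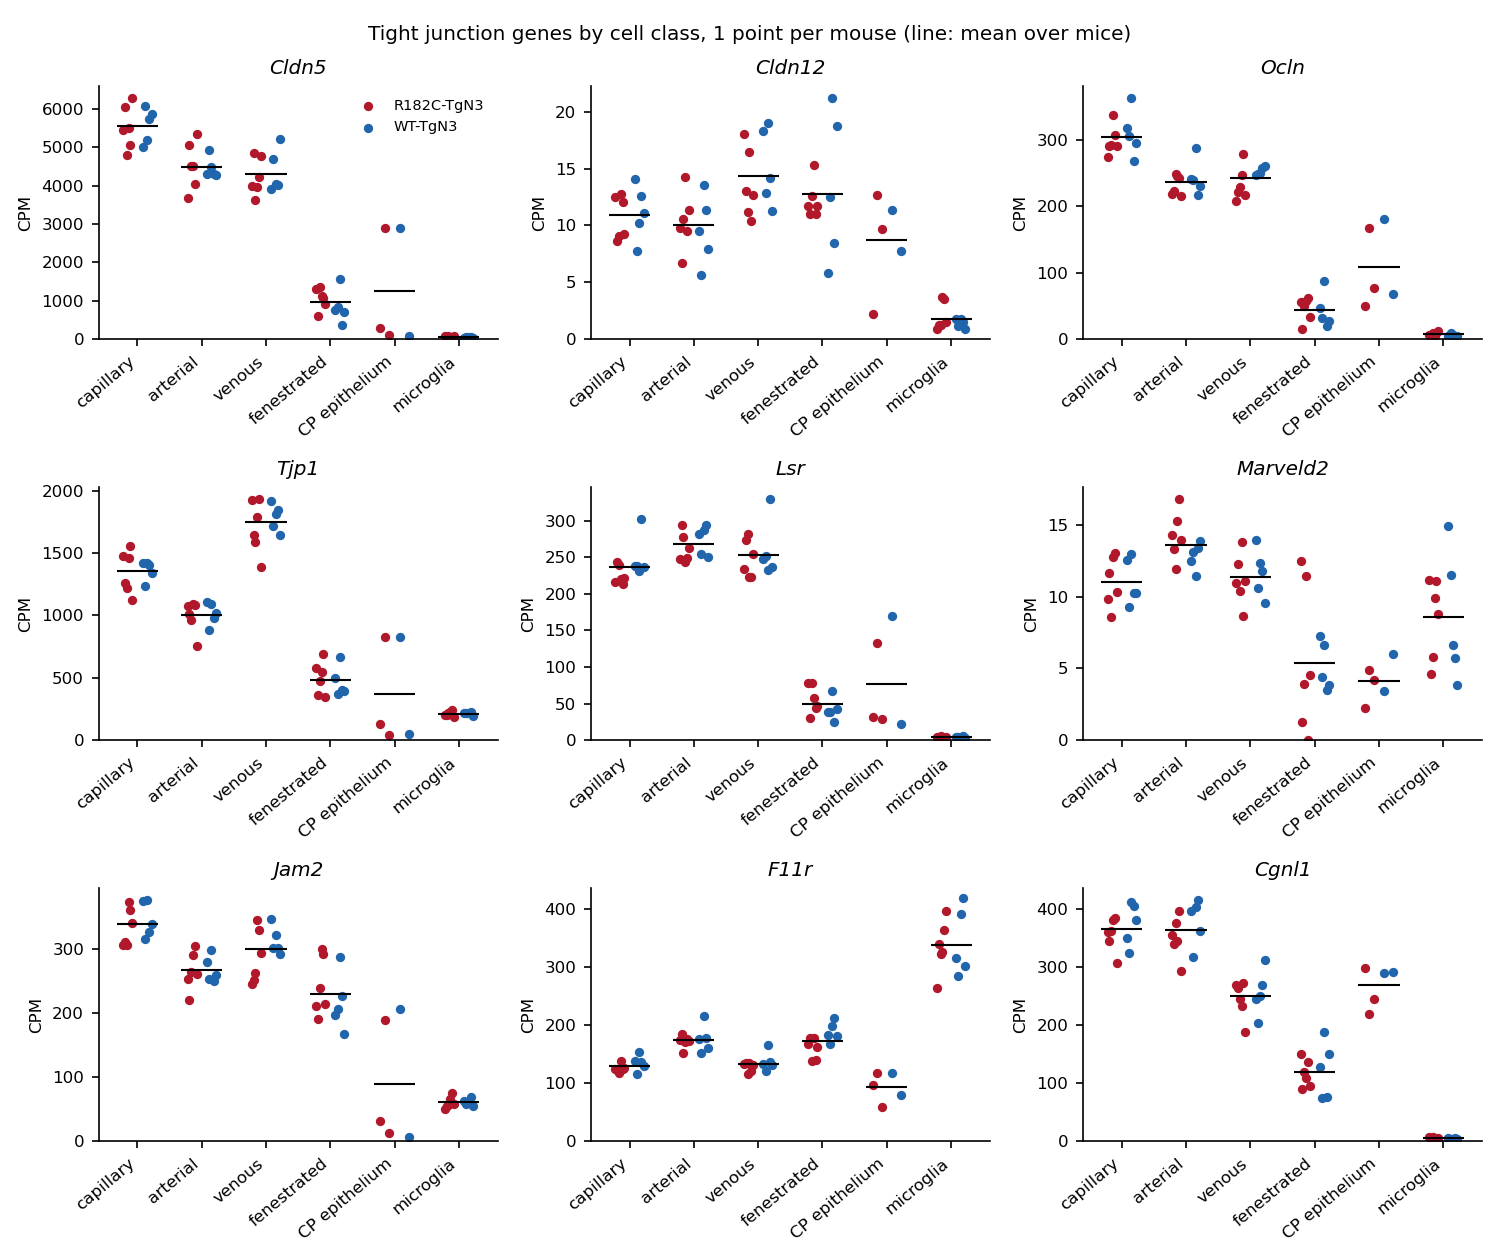
CPM of each member (y axis, a scale of its own in each panel) by cell class, with 1 point per mouse, red for R182C-TgN3, blue for WT-TgN3 and a line at the mean over mice. Microglia are shown as a class outside the vessel wall. Cldn5, Ocln and Lsr drop in fenestrated cells, F11r does not, and the red and blue points overlap in every class of the members' comparisons.

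The size of the fenestrated differences depended on how these cells were chosen. Of the 2368 cells, 1724 lay in subclusters that the same markers named fenestrated, while 503 lay in capillary, 99 in arterial, 23 in venous subclusters and 19 in subclusters with no segment name. Thinned to 2000 UMIs per cell, a Cldn5 UMI was found in 98.1% ± 1.96 (SD, n = 10 mice) of the cells outside fenestrated subclusters and in 10.8% ± 2.88 (SD, n = 11 mice) of those inside them. The latter share stood beside 5.94% ± 2.32 (SD, n = 11) in microglia and 10.8% ± 8.46 (SD, n = 11) in smooth muscle cells, cell types that should lack Cldn5, with median depths of 5336, 5423 and 8227 UMIs. Without thinning it was 22.0% ± 7.59 (SD, n = 11). The class thus held cells that nearly always had a Cldn5 UMI and other cells. The mean share of the latter was no higher than in smooth muscle cells but above that in microglia.

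The other members differed in how far their shares were split. Ocln was found in 31.3% ± 6.82 of the cells outside and 1.08% ± 0.752 of those inside fenestrated subclusters, with 1.16% ± 0.513 in microglia. Lsr was found in 32.5% ± 9.45 and 1.39% ± 1.12, with 0.711% ± 0.325 in microglia. The share of Ocln inside the subclusters was not above that of microglia, and that of Lsr was higher by less than its own SD over mice. Tjp1 kept 47.4% ± 6.93 inside against 80.2% ± 8.43 outside, Jam2 30.5% ± 5.79 against 50.1% ± 4.37 and Cgnl1 12.96% ± 3.50 against 36.6% ± 6.72, where microglia had 33.0% ± 2.68, 11.3% ± 2.10 and 0.888% ± 0.326 (SD, n = 11 inside and in microglia, n = 10 outside). F11r was found in 28.0% ± 5.68 of the cells inside and 25.3% ± 4.15 of those outside, so its share did not drop. The scarce members were found in few cells, with Cldn12 in 1.86% ± 1.86 inside and 2.35% ± 2.22 outside and Marveld2 in 0.730% ± 0.972 and 2.01% ± 2.10, where the spreads overlapped. Shares were not compared by a test within mice, and an SD over mice does not measure the error of a difference between them.

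**Figure D3:**
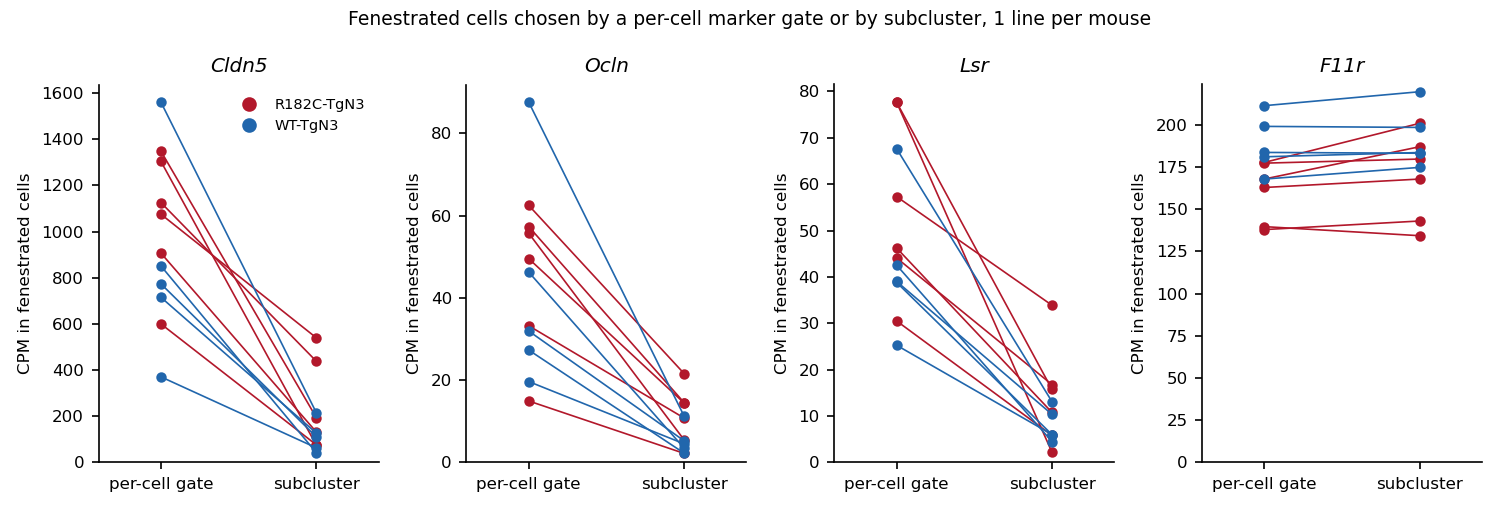
CPM in fenestrated cells chosen by the per-cell score or by subcluster, with 1 line per mouse, red for R182C-TgN3 and blue for WT-TgN3. Cldn5, Ocln and Lsr fall in every mouse from the score to the subcluster, and F11r stays between 134 and 220 CPM.

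With the 1745 cells of the fenestrated subclusters, Cldn5 was 183 ± 162 CPM (SD, n = 11), from 42.0 to 540 CPM over mice, and 39.0 times lower than in capillary subclusters (log2 fold change -5.29, standard error 0.32). Ocln at 8.70 ± 6.28 CPM and Lsr at 11.4 ± 8.83 CPM (SD, n = 11 each) were 41.4 and 27.2 times lower (log2 fold changes -5.37 and -4.77). Tjp1 moved less with this choice, to a log2 fold change of -2.03, as did Cgnl1 (-2.13), Marveld2 (-1.54) and Jam2 (-0.73). Doubling the margin of the score gave values between these, with -4.11 for Cldn5, -4.39 for Ocln and -3.62 for Lsr. F11r kept a log2 fold change of 0.41 with subclusters and had 0.50 with the doubled margin. Every direction and call in fenestrated cells was the same under both choices. Capillary markers summed to between 565 and 1286 CPM in the scored class and between 320 and 814 CPM in the subclusters. Their part in the fenestrated levels was not tested. The scored arterial and venous classes also held cells of capillary subclusters. Of 6961 arterial cells, 4302 lay in arterial and 1167 in capillary subclusters. Of 6168 venous cells, 2958 lay in venous and 2477 in capillary subclusters.

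In choroid plexus epithelium 6 members were lower than in capillary cells, none was higher and 3 did not pass, where 17.3% of 10067 genes were lower, 22.9% higher and 40.3% passed in either direction. Only 5 mice had at least 20 such cells, and these sums were of 2 kinds. In the 6-month R182C-TgN3 mouse 1 and the 6-month WT-TgN3 mouse 1, both of the same batch, the 8 endothelial markers summed to 6448 and 6524 CPM and the choroid plexus markers to 61941 and 59258 CPM. In the other 3 mice the endothelial markers summed to 200, 513 and 1094 CPM and the choroid plexus markers to between 233490 and 282600 CPM. The first 2 mice held 272 and 222 of the 638 cells, with 1029323 and 882316 UMIs. The other 3 held 22, 26 and 36 cells, with 443465, 720672 and 1668971 UMIs. Cldn5 followed this split with 2910 and 2891 CPM in the first 2 mice and 74.9, 99.9 and 282 CPM in the others. A mean over the 5 mice therefore describes no single one of them, and the values below are given for both sets.

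Over all 5 mice the log2 fold change of Cldn5 against capillaries was -3.42 ± 1.10 (SE, edgeR adjusted p = 0.0431), and the 95% interval ran from -6.48 to -0.36. Over the 3 mice with endothelial markers under 2000 CPM, a limit chosen after seeing the data, it was -5.15 with a standard error of 0.36 (edgeR adjusted p = 2.56e-07), or 35.6 times lower. Jam2 moved from -2.59 to -4.18, Tjp1 from -2.55 to -3.87, Lsr from -1.71 to -2.72 and Ocln from -1.32 to -1.73, and these 5 members passed the test in both sets. Marveld2, with 22 UMIs over the 5 mice, passed over all mice (log2 fold change -1.02, edgeR adjusted p = 0.0420) and not over the 3 (-0.73, edgeR adjusted p = 0.175). The count over 5 mice was sensitive to the mice with few endothelial markers, since it fell from 6 members to 1 without the 9-month R182C-TgN3 mouse 2 or the 6-month R182C-TgN3 mouse 3, and to 2 without the 9-month WT-TgN3 mouse 2.

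Cgnl1 and F11r did not pass the test in the epithelium, nor did the scarce Cldn12. Cgnl1 was at 220, 246, 289, 292 and 298 CPM in the 5 mice, with a log2 fold change of -0.05 (95% interval -0.62 to 0.52) that became 0.11 over the 3 mice. F11r was at 59.7, 79.1, 97.0, 117 and 118 CPM, with a log2 fold change of -0.18 (95% interval -0.61 to 0.25) and of -0.30 over the 3 mice. The CPM of Cgnl1 were lower than the capillary levels of the same mouse in 5 of 5 mice, as were those of F11r, while the scaling factors of the test brought both near 0. In the 3 mice with few endothelial markers, Ocln was at 49.6, 68.3 and 77.7 CPM, well above its 7.21 ± 2.52 CPM in microglia (SD, n = 11), and Lsr at 22.2, 29.1 and 31.6 CPM, above 4.08 ± 1.12 CPM. Tjp1 at 38.9, 50.9 and 126 CPM was below its microglial range of 186 to 239 CPM.

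**Figure D4:**
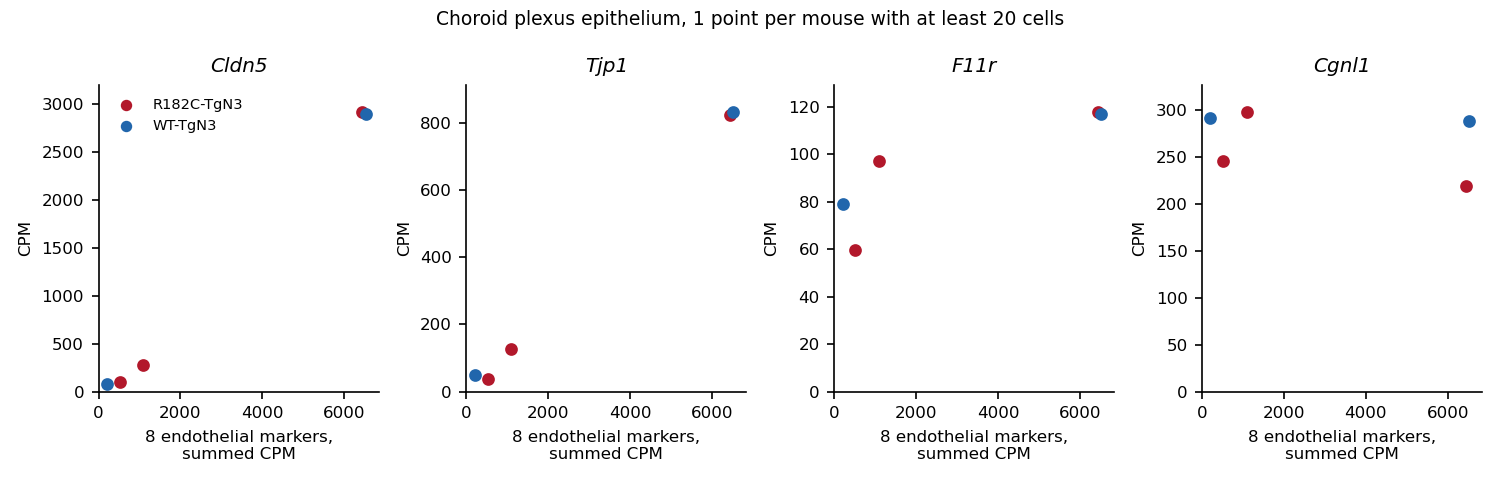
CPM of 4 members in choroid plexus epithelium (y axis) against the summed CPM of 8 endothelial markers in the same sum (x axis), 1 point per mouse with at least 20 cells, red for R182C-TgN3 and blue for WT-TgN3. Cldn5 and Tjp1 are high in the 2 mice with 6448 and 6524 CPM of endothelial markers, and Cgnl1 lies between 220 and 298 CPM on both sides.

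No member passed the test between R182C-TgN3 and WT-TgN3 mice in any class. The share of all genes called was 0% in each of the 5 comparisons, so that the absence of calls is not particular to the junction genes. At an unadjusted p under 0.05 no member passed. Of all genes tested, 253 of 10913 passed in capillary, 160 of 10659 in arterial and 193 of 11106 in venous cells. In fenestrated cells 295 of 9229 passed, and in choroid plexus epithelium 11 of 8898. With shares this small, the lack of a pass is no result about the members. DESeq2 called 0 genes in each class. Capillary Cldn5 ranged from 4810 to 6287 CPM in R182C-TgN3 mice (median 5481) and was 5580 ± 458 CPM (SD, n = 5) in controls. The log2 fold change was 0.03 with a 95% interval from -0.20 to 0.25 (edgeR adjusted p = 1.00). For the 9 members the log2 fold changes lay between -0.10 (Lsr) and 0.04 (Marveld2) in capillaries, and the widest interval was that of Cldn12, from -0.37 to 0.34. They lay between -0.07 (Cgnl1) and 0.19 (Cldn12) in arterial and between -0.08 (Jam2) and 0.00 (Marveld2) in venous cells. The ranges of the genotypes overlapped for all 9 members in all 5 classes. Overlap was not counted over all genes, so this too is no result about the members.

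In fenestrated cells the intervals were wider. Lsr ranged from 30.5 to 77.7 CPM in R182C-TgN3 mice (median 51.8) and was 42.7 ± 15.5 CPM (SD, n = 5) in controls, a log2 fold change of 0.47 with a 95% interval from -0.12 to 1.06 (edgeR adjusted p = 0.999). F11r had the lowest value, -0.18 with an interval from -0.43 to 0.08. Marveld2 had too few counts to be tested there. In choroid plexus epithelium 3 R182C-TgN3 and 2 WT-TgN3 mice could be compared, and the interval of Cldn5 ran from -5.82 to 5.04 on the log2 scale, so that differences within that wide interval were not detectable. With batch as a covariate the members' log2 fold changes ran from -0.14 (Lsr) to 0.09 (Marveld2) in capillary cells. In fenestrated cells they ran from -0.19 (Cldn12) to 0.38 (Cldn5), and none passed in either class. Without the clusters mostly of 1 library the fenestrated values ran from -0.15 (F11r) to 0.15 (Lsr). With segments from subclusters they ran from -0.16 (Cldn12) to 1.19 (Ocln), and none passed in either setting.

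**Figure D5:**
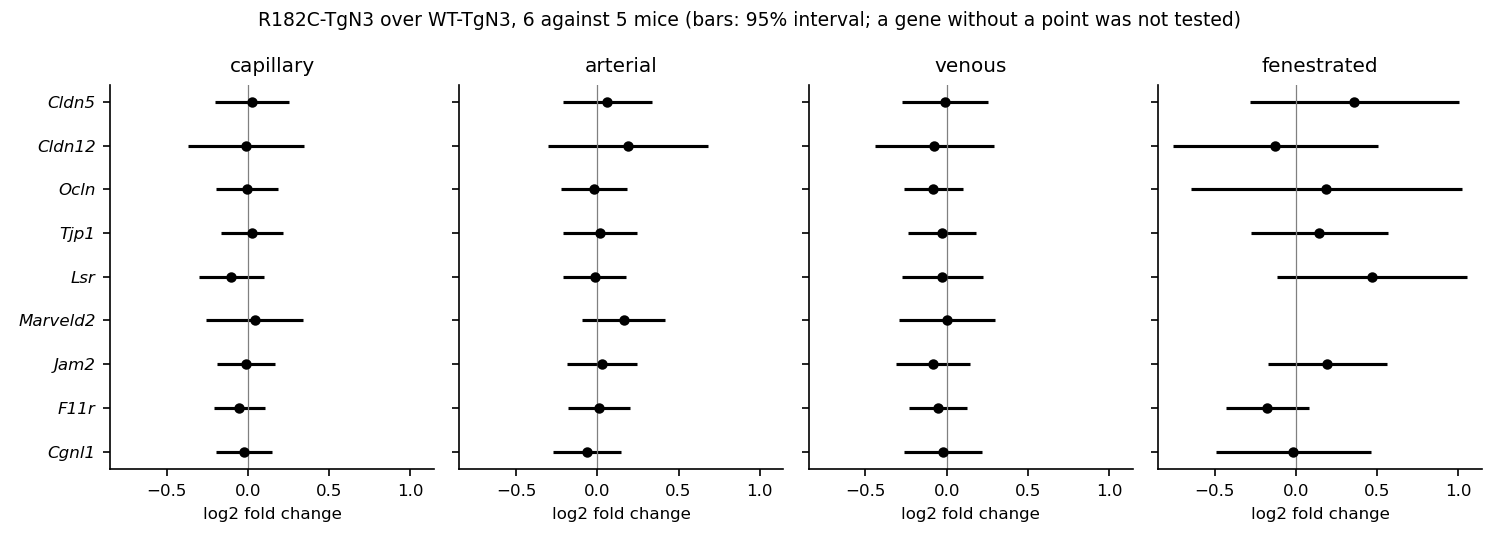
Log2 fold change of R182C-TgN3 over WT-TgN3 mice (x axis) for each member in 4 endothelial classes, 6 against 5 mice, with 95% intervals as bars. All intervals include 0, and Marveld2 has no point in fenestrated cells because it was not tested.

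The difference between genotypes was also compared between 9 and 6 months. No member passed in any class, where 0.00997% of all genes tested passed in fenestrated cells and 0% in the other 4 classes. In fenestrated cells 452 of 10028 genes tested had an unadjusted edgeR p under 0.05, and 1 of these was a member. Fenestrated Cldn5 had the smallest unadjusted p of the members over all classes (0.0363), with a difference between ages of 1.13 on the log2 scale, a standard error of 0.49 and an edgeR adjusted p of 0.999. Its values were 600, 1304 and 1348 CPM in R182C-TgN3 mice at 9 months and 907, 1075 and 1126 CPM at 6 months, against 371 and 715 CPM in WT-TgN3 mice at 9 months and 774, 851 and 1561 CPM at 6 months. These values moved with the capillary markers of the same sums, which were lowest in the 9-month R182C-TgN3 mouse 2 (565 CPM) and in the 2 WT-TgN3 mice of 9 months (585 and 656 CPM). The part of these markers in the difference was not tested.

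Beyond the members, 42 of 43 other listed tight junction genes were in the feature lists, and 12 adherens junction genes were followed. Their counts can be read only beside the shares of all genes tested, repeated here, and were not compared by a test. In arterial cells 24 of the tight junction genes were tested, of which 6 were higher and 11 lower than in capillaries, where 29.1% of all genes were higher and 28.7% lower. The largest differences were in Marveld1, a MARVEL protein (47.7 ± 5.01 against 7.87 ± 1.93 CPM, SD, n = 11, log2 fold change 2.55), Pard6g, a polarity scaffold (-2.53), and Cxadr, a JAM-related adhesion protein (-1.45). In venous cells 10 of 24 were higher and 5 lower (26.8% and 28.8% of all genes), led by the polarity genes Prkcz (1.40), Pard6g (1.16) and Patj (0.97). In fenestrated cells 6 of 23 were higher and 9 lower (25.9% and 27.6% of all genes). Jam3, which encodes JAM-C, ranged from 174 to 392 CPM there (median 276) and from 3.38 to 6.36 CPM in capillaries (5.76, edgeR adjusted p = 2.88e-19), while Igsf5, another JAM relative, and Ildr2, an angulin, were lower (-3.27 and -2.44). Fenestrated cells thus had more Jam3 and F11r and less Jam2 than capillaries, and less of both angulins tested, Lsr and Ildr2. In choroid plexus epithelium, over all 5 mice, 10 of 28 were higher and 7 lower (22.9% and 17.3% of all genes). Cldn2, a claudin of cation pores, Crb3, a polarity protein of epithelia, and Cldn1, a sealing claudin, had the largest differences. Cldn2 was at 38.5 to 141 CPM in the 5 mice, Crb3 at 20.4 to 71.3 CPM and Cldn1 at 21.4 to 66.5 CPM. In capillary cells of all 11 mice these genes had 10, 4 and 5 UMIs in all, so their fitted fold changes depend on the prior count and are not given.

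The adherens junction genes, whose proteins also hold neighbouring cells together, had counts of their own. In arterial cells 5 of 11 were higher and 4 lower (29.1% and 28.7% of all genes). Log2 fold changes there were -1.73 for Cdh2 (N-cadherin), 1.62 for Nectin1 and 0.67 for Vcl (vinculin). In venous cells 5 of 11 were higher and 3 lower (26.8% and 28.8% of all genes). Nectin1 (1.94), Vcl (1.39) and Nectin2 (1.17) led there. In fenestrated cells 6 of 10 were higher and 3 lower (25.9% and 27.6% of all genes). Jup (plakoglobin), Nectin3 and Nectin2 had log2 fold changes of 1.60, 1.59 and 1.46 there. In choroid plexus epithelium, over all 5 mice, 1 of 10 was higher and 5 lower (22.9% and 17.3% of all genes). The largest differences were in Afdn (afadin), Cdh2 and Jup, which ranged over the 5 mice from 25.0 to 194, 12.5 to 46.5 and 13.8 to 63.5 CPM. No gene of either list passed the test between genotypes or of the difference between genotypes at the 2 ages.

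Levels of the members were also compared in shape over the 49 sums of a class and a mouse, as Pearson's r of log2(CPM + 1). The sums share mice, libraries and the split between barrier and fenestrated cells, so r is a description. Cldn5 followed Lsr (0.94), Tjp1 (0.93), Jam2 (0.83) and Ocln (0.82), and was little related to F11r (0.26) and Cldn12 (0.25). F11r and Cgnl1 ran slightly opposite (-0.23). Among 9990 genes with sufficient levels, those most like Cldn5 were Foxq1, a forkhead factor (0.99), Pllp (0.98), Prom1 (0.97), Abcb1a, the P-glycoprotein efflux pump (0.97), and Fn1, fibronectin (0.97). The gene most like Ocln was Osbpl1a (0.98), and for the others they were Fry for Tjp1 (0.98), Ctsh for Lsr (0.98), Erg, an endothelial transcription factor, for Jam2 (0.98), Slco1c1, the thyroid hormone carrier, for Cgnl1 (0.94) and Actn4, an actin linker, for F11r (0.92). The scarce members had weaker nearest genes, Dhx40 for Marveld2 (0.78) and Hsd3b7 for Cldn12 (0.71).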

How the data were processed

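Cerebrovascular cells of 11 mice were profiled in droplets, 1 library per mouse. The deposited files hold raw UMI counts per gene and called barcode, which the authors made with Cell Ranger 7.0.0 against mm10 with human NOTCH3 added (per the labels and methods). The members and gene lists were chosen with earlier results of these data known. Kept barcodes had 500 or more genes and no more than 10% of UMIs from mitochondrial genes, shared barcodes and scored doublets (0.8% per 1000 barcodes) were removed, and cells were clustered without members or listed junction genes (leidenalg 0.10.2, resolution 1.0). UMIs were summed per mouse and class with at least 20 cells, which left 11 mice for endothelial classes and 5 for choroid plexus epithelium.

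Low genes were dropped by filterByExpr. Library sizes were scaled by TMM, and the quasi-likelihood test of edgeR 4.0.16 in R 4.3.3 was used, with Benjamini-Hochberg adjustment over all genes tested. Genotypes were compared without a covariate as in the study, ages as an interaction, and classes with mouse as a block. DESeq2 1.42.0, which the study used, was an alternative. All members were named, and from the lists the 3 largest fold changes past the threshold. Genes most alike were sought among those with a mean of at least 10 CPM in a class. Shares of cells were counted after thinning to 2000 UMIs per cell. The tests were checked on simulated counts. Intervals are 95% intervals of the fit, and the mouse is the replicate.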

Additional observations from a re-analysis of the deposited data

Results flagged for a closer look

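Of 72 groups of 5 or 6 mice, 2 had a mouse far from the others by Dixon's criterion, which chance flags in about 1 of 20 groups. Both values were of Lsr in the 9-month WT-TgN3 mouse 1. In capillary cells it had 302.3 CPM, where the other WT-TgN3 mice had between 231.7 and 238.9 CPM. In venous cells it had 329.8 CPM, where the others had between 233.4 and 252.5 CPM. Lsr was not called between genotypes with or without this mouse.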

How the results depend on the processing

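Counts of members called were recomputed with DESeq2, with no low-count filter, with edgeR on size factors from DESeq2, doublets kept, at least 1000 genes per barcode, a doubled margin, segments from subclusters, sex or batch as a covariate, and each mouse left out. After seeing the data, settings with shared barcodes kept, with 2 clusters mostly of 1 library left out, and with the 3 choroid plexus sums of low endothelial markers were added. Of 279 recomputed counts, 275 stayed within 1.5 times the main value. The main count was 0 in every genotype and age comparison, where almost no gene was called. Unchanged counts in those comparisons therefore say little about stability. The exceptions were all in choroid plexus epithelium against capillary cells, where the count of 6 became 3 with no replicate block (mouse left out of the model) and ran from 1 to 5 when each mouse was left out. Of 2458 recomputed fold changes none changed direction past the threshold, 23 lost and 1 gained significance. Shares of cells with a UMI depended on depth, and 99 of 126 moved by more than the SD over mice when cells were thinned to 1000 UMIs or not at all. Unthinned, F11r was found in 60.6% ± 12.6 of cells inside and 38.5% ± 9.28 of those outside fenestrated subclusters. Choroid plexus epithelium took no name with at least 1000 genes, so that setting gave no value there.

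For genotypes, the labels number the mice of each age. Deviations of same-numbered mice correlated across genes with r from -0.07 to 0.29 in capillary, -0.13 to 0.44 in arterial, -0.09 to 0.32 in venous and -0.23 to 0.07 in fenestrated cells, so the numbers were not taken as pairs there. In choroid plexus epithelium only 2 pairs existed, with r of 0.44 and 0.87, too few to take the numbers as pairs. A replicate block by number left 0 members called in every genotype and age comparison. The low counts of Cldn12 and Marveld2 and the 5 choroid plexus sums, 3 of them with 22 to 36 cells, limit what could be detected.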
